A study of Mus musculus with 8 samples.

Results

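The genes described here are the transcription factor gene Nfe2l2, which encodes Nrf2, its inhibitor gene Keap1 and 8 antioxidant genes (Gclc, Gclm, Nqo1, Txnrd1, Srxn1, Prdx1, Sod2 and Gsr). They were chosen by name, and each was represented by the probe set that carried its symbol alone and had the highest mean over the 8 arrays. Of the 10 genes, 9 had such a probe set, among 22180 genes on the array. Prdx1 has no value here, because its 3 probe sets also carry the symbols of other genes.

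RNA was measured in CD11c-positive dendritic cells grown with GM-CSF (granulocyte-macrophage colony-stimulating factor) from the bone marrow of wild-type female C57BL/6 mice. The sources used here give neither the age of the mice nor any pooling of animals. The SCF group (n = 4) received stem cell factor (SCF), which activates the receptor tyrosine kinase Kit, at 100 ng/ml for 6 hours. The medium group (n = 4) spent these 6 hours without SCF. Before that, both groups had been cultured for 7 days at 21% oxygen, purified to over 98% CD11c-positive cells and kept for 2 days at 2% oxygen. GM-CSF was present at 20 ng/ml in each of these culture steps. Each of the 4 experiments (BC, D2, E and I), which were run separately, gave 1 SCF and 1 medium array from the same purified cells, so the arrays are paired. All 8 samples come from low oxygen, so no comparison with normal oxygen is possible.

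Nrf2 is the main transcriptional regulator of the response to oxidants and electrophiles. In unstressed cells Keap1 binds Nrf2 and delivers it to a cullin ubiquitin ligase for degradation, and oxidation of Keap1 cysteines lets Nrf2 accumulate. Nrf2 then pairs with small Maf proteins at antioxidant response elements and raises the transcription of genes for glutathione synthesis, the thioredoxin system and quinone reduction. In dendritic cells this system limits oxidant damage and is known to restrain maturation. Because Nrf2 is controlled mainly at the protein level, the Nfe2l2 transcript is not a measure of Nrf2 activity.

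The antioxidant response element is the DNA sequence at which Nrf2 acts with small Maf proteins. Its core, TGACNNNGC, was looked for on both strands of RefSeq promoters (build GRCm38.p6, 250 bases before to 50 after a gene's start). Of the 10 genes, 8 had a promoter in the table, with 3 promoters for Txnrd1 and 10 in all. The core was found in 5 of these 10 promoters, each of a different gene, and in 12.4% of all 32851 promoters. The 4 matches upstream of the start follow with up to 20 bases on either side, on the strand of the gene, with the match in capitals. The Gclm, Prdx1 and Txnrd1 matches lie on the opposite strand, so their capitals are the core's reverse complement.
Nfe2l2: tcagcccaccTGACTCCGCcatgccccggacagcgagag
Gclm: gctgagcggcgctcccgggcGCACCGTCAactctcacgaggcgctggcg
Prdx1: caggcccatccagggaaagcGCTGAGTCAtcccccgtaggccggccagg
Txnrd1: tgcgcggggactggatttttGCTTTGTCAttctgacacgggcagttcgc
These windows lie at chr2:75704875-75704913 (minus strand) for Nfe2l2, chr3:122245403-122245451 (plus strand) for Gclm, chr4:116685446-116685494 (plus strand) for Prdx1 and chr10:82859094-82859142 (plus strand) for Txnrd1. The match in Prdx1 also holds the AP-1 sequence TGACTCA on the opposite strand, which the other 3 do not. In Srxn1 the core began 28 bases after the start and is not printed. No match was found in the windows of Nqo1, Keap1 and Sod2, which says only that these letters were absent there. A match is a description of the sequence and not a measured binding site.

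The deposited intensities had array medians between 13.3 and 13.9 on the linear scale. All values below are log2 intensities, and levels are compared only within a gene, since probe sets differ in brightness. Tests used the 12668 probe sets with a gene symbol and a mean log2 intensity of at least 4.05, and all 9 genes passed this filter. Marker genes of the labelled cell type and of others were set beside this filter. It is the median of the means of the 25335 probe sets with a symbol, so 12668 reach it by construction, and passing it is not a detection call. All 9 dendritic cell markers found on the array, among them Itgax (CD11c), H2-Ab1 and Zbtb46, exceeded that filter. So did 9 of 9 macrophage and monocyte markers, which cultures of this kind also express. Of the latter, Marco lay close to it, with means of 4.14 with SCF and 4.08 in medium. The filter was exceeded by 3 of 10 mast cell and basophil markers, 2 of 10 neutrophil markers, 0 of 6 lymphocyte markers and 0 of 1 erythroid marker.

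The first comparison asked whether SCF altered the expression of the Nrf2 system in hypoxic dendritic cells. None of the 9 genes passed an adjusted threshold of 0.05 in limma, fitted with the experiment as a block, where 0% of all probe sets tested passed. The smallest adjusted p among the 9 genes was 0.945, and 0 of the 9 had an unadjusted p under 0.05, against 4.21% of all probe sets tested. This unadjusted count was 2 of 9 with limma's variance trend (beside 652 of the 12668 probe sets) and 1 of 9 without experiment D2 (beside 467), so no order against the overall share can be read from it. The fitted log2 fold changes lay between −0.12 for Txnrd1 and 0.04 for Keap1. All 9 of the 95% confidence intervals lay between 0.834-fold and 1.12-fold, so larger changes at these 9 probe sets lie outside the intervals. The intervals are not adjusted for the number of genes, and a second probe set of Keap1, given below, reached higher. The SCF and medium arrays overlapped for each of the 9 genes, where 0.971% of the probe sets tested had groups that did not overlap. The p-values, SEs and intervals rest on the spread between 4 culture pairs, which the design text calls biological replicates. In limma each gene's own spread (3 degrees of freedom) is drawn toward that of all probe sets tested (4.39 prior degrees of freedom). The SE of a gene is thus not the spread of its own pairs alone.

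**Figure D1:**
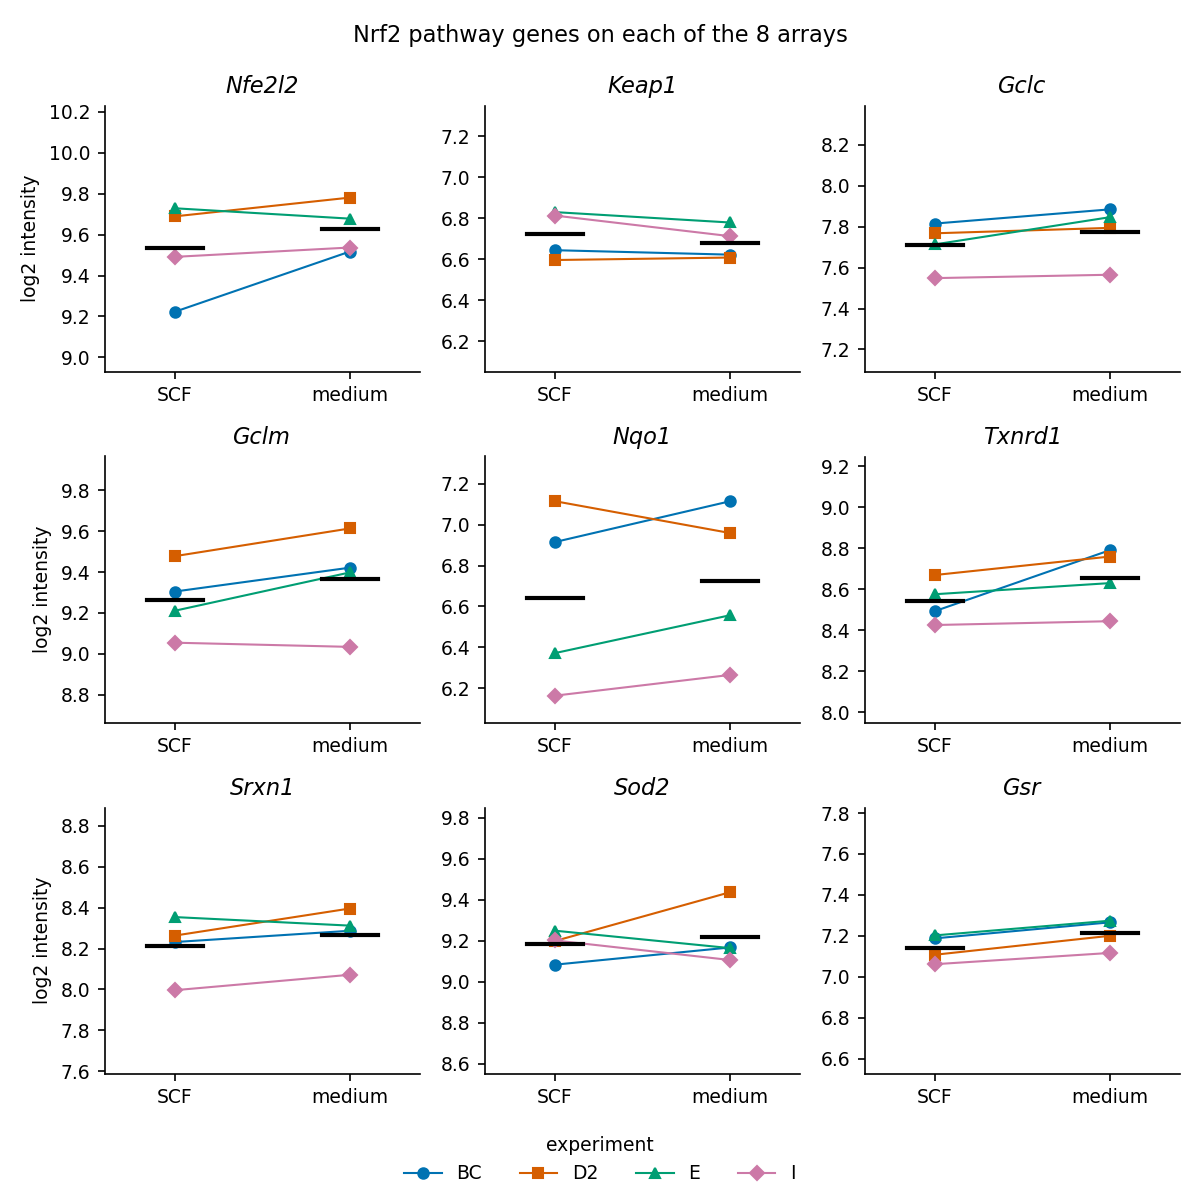
Log2 intensity of each of the 9 genes on the 8 arrays, with SCF on the left and medium on the right of each panel, 1 line per experiment and a black bar at the mean of 4 arrays. Each panel spans the same log2 distance; the lines of Nqo1 lie farthest apart, between 6.16 and 7.11, while the group means of every gene are close together.

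The regulators come first. Nfe2l2 measured 9.22 (BC), 9.69 (D2), 9.73 (E) and 9.49 (I) with SCF, against 9.52 (BC), 9.78 (D2), 9.68 (E) and 9.54 (I) in medium. The SCF array of BC was the lowest of the 8, and the pair of experiment E ran the other way from the other 3. The log2 fold change was −0.10 (SE 0.07, limma adjusted p = 0.945), with a 95% confidence interval from −0.25 to 0.06. The fitted change was −0.03 without BC and −0.14 without E. Keap1, the substrate adaptor that holds Nrf2 low, measured 6.64 (BC), 6.60 (D2), 6.83 (E) and 6.81 (I) with SCF, against 6.62 (BC), 6.61 (D2), 6.78 (E) and 6.71 (I) in medium. It was the only one of the 9 genes with a fitted change above 0, at 0.04 (SE 0.05, limma adjusted p = 0.960), with a 95% confidence interval from −0.08 to 0.16. It was 0.02 without I and 0.02 with the array medians equalized, and 0.09 when its 2 probe sets were averaged. A dimmer second probe set of Keap1, which the selection rule left out, lay above 0 in 4 of 4 experiments at 0.15 (SE 0.06). That probe set had an unadjusted limma p of 0.0332 and an adjusted p of 0.945, and its mean lay near the intensity filter, with SCF arrays between 4.40 and 4.66 and medium arrays between 4.13 and 4.58. The 2 probe sets thus had the same fitted sign but different sizes.

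The 3 glutathione genes had fitted changes below 0, and none passed the test. Gclc, the catalytic subunit of glutamate-cysteine ligase, which catalyses the rate-limiting step of glutathione synthesis, measured 7.81 (BC), 7.77 (D2), 7.71 (E) and 7.55 (I) with SCF, against 7.88 (BC), 7.79 (D2), 7.85 (E) and 7.56 (I) in medium. Each SCF array was below its partner, by at most 0.13 in experiment E, and the log2 fold change was −0.06 (SE 0.05), or −0.04 without E. Gclm, the modifier subunit that makes this ligase more efficient, measured 9.30 (BC), 9.48 (D2), 9.21 (E) and 9.05 (I) with SCF, against 9.42 (BC), 9.61 (D2), 9.40 (E) and 9.03 (I) in medium. The SCF array was the lower one in BC, D2 and E, and the gene had the smallest unadjusted p of the 9 genes in limma, 0.1, with a log2 fold change of −0.10 (SE 0.06, 95% confidence interval from −0.24 to 0.03, adjusted p = 0.945). Gsr, the reductase that regenerates glutathione with NADPH, measured 7.19 (BC), 7.11 (D2), 7.20 (E) and 7.06 (I) with SCF, against 7.27 (BC), 7.20 (D2), 7.27 (E) and 7.12 (I) in medium. Its 4 differences were the most even of the 9 genes, from −0.09 in D2 to −0.06 in I, and its log2 fold change was −0.07 (SE 0.05, limma adjusted p = 0.945).

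In the thioredoxin system, Txnrd1 encodes the cytosolic reductase of thioredoxin and Srxn1 the sulfiredoxin that repairs overoxidised peroxiredoxins. Txnrd1 measured 8.49 (BC), 8.67 (D2), 8.58 (E) and 8.43 (I) with SCF, against 8.79 (BC), 8.76 (D2), 8.63 (E) and 8.44 (I) in medium. Its 4 differences were all below 0 but uneven, at −0.30 in BC and −0.02 in I. Its log2 fold change was −0.12 (SE 0.06, limma adjusted p = 0.945), with a 95% confidence interval from −0.26 to 0.03, or −0.05 without BC. Srxn1 measured 8.23 (BC), 8.26 (D2), 8.35 (E) and 7.997 (I) with SCF, against 8.29 (BC), 8.40 (D2), 8.31 (E) and 8.07 (I) in medium, a log2 fold change of −0.06 (SE 0.05), or −0.03 without D2 and −0.09 without E. Both of its arrays from experiment I were below the other 6.

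Nqo1, the quinone reductase that is a standard readout of Nrf2 activity, measured 6.91 (BC), 7.11 (D2), 6.37 (E) and 6.16 (I) with SCF, against 7.11 (BC), 6.96 (D2), 6.56 (E) and 6.27 (I) in medium. The SCF array was the lower one in 3 pairs and the higher one in D2, and the log2 fold change was −0.08 (SE 0.07, limma adjusted p = 0.945), with a 95% confidence interval from −0.25 to 0.08. It was −0.16 without D2, −0.04 without BC and −0.05 without E. Sod2, the mitochondrial superoxide dismutase, which NF-kB signalling also induces, measured 9.08 (BC), 9.20 (D2), 9.25 (E) and 9.20 (I) with SCF, against 9.17 (BC), 9.44 (D2), 9.16 (E) and 9.11 (I) in medium. Its experiments were split evenly around 0, with a log2 fold change of −0.04 (SE 0.07, limma adjusted p = 0.978), which turned to 0.03 without D2 and was −0.02 without BC, −0.08 without E and −0.08 without I.

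**Figure D2:**
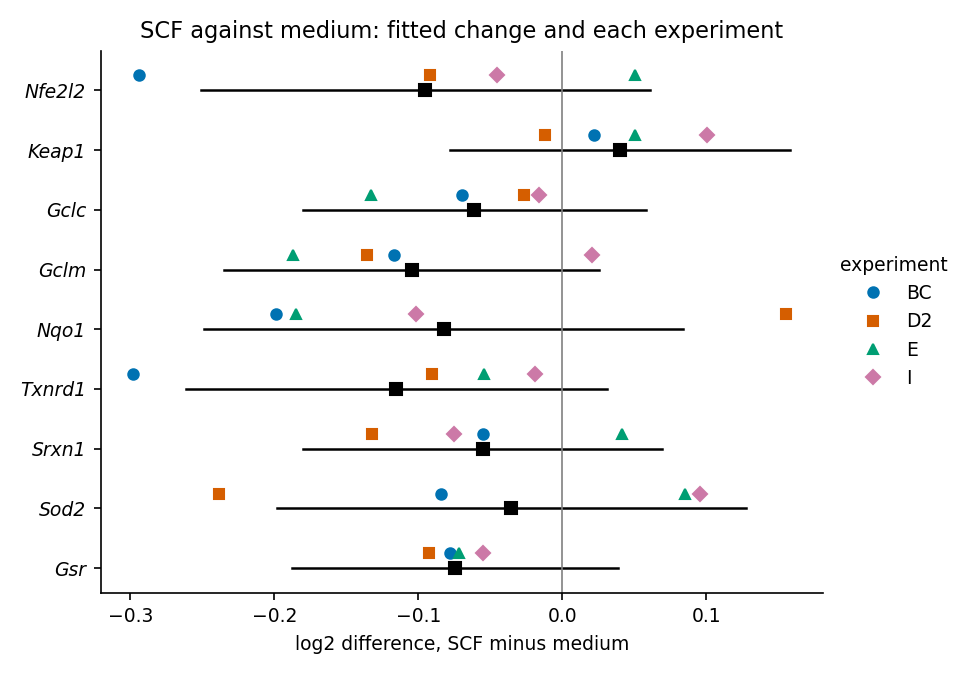
SCF minus medium log2 difference of each of the 9 genes, with black squares for the fitted change, black lines for the 95% confidence interval and coloured points above them for the 4 experiments. All 9 intervals include 0, and 8 of the 9 squares lie left of it, between −0.12 and −0.04.

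As a list, 8 of the 9 genes had a fitted change below 0, against 49.5% of all probe sets tested, and none of the 8 passed the test. The median log2 fold change was −0.07 over the 9 genes and 0.00077 over all probe sets tested. Within the experiments, the median difference of the 9 genes was −0.08 (BC), −0.09 (D2), −0.05 (E) and −0.02 (I). The number of genes below 0 was 8 of 9 (BC), 8 of 9 (D2), 5 of 9 (E) and 6 of 9 (I). Gclc, Txnrd1 and Gsr were below 0 in 4 of 4 experiments, where 6.44% of all probe sets tested were. With the array medians equalized Gsr kept this sign in 4 of 4, and Gclc and Txnrd1 in 3 of 4. Under that scaling the list's median was −0.09, again with 8 of 9 below 0, while the median of all probe sets tested moved to −0.02. Since the genes were picked by function, as Nfe2l2, its inhibitor Keap1 and known targets of Nrf2, their signs are not separate observations.

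The second comparison was between the 4 experiments, whatever the treatment, and it was led by Nqo1 and Gclm, which were highest in D2 and lowest in I. For each of the 9 genes the gap between the highest and the lowest experiment mean was larger than its fitted SCF difference, although a gap over 4 experiments is larger by construction than one between 2 groups of the same spread. In limma's F test of experiment, with treatment in the model, Nqo1 was the only one of the 9 genes that passed (adjusted p = 0.0196), where 3.35% of all probe sets tested passed. At an unadjusted p under 0.05 there were 5 of the 9 genes (Nfe2l2, Gclc, Gclm, Nqo1 and Srxn1), against 24.2% of all probe sets tested. The spread behind this F test is that of the 4 pairs, whose 2 arrays share their purified cells. Its p-value therefore does not measure how repeated cultures would vary. Whether the experiments differed through the mice, the culture or the handling of the arrays cannot be told apart.

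Nqo1 averaged 7.01 (BC), 7.04 (D2), 6.46 (E) and 6.21 (I), each over 2 arrays. The 4 arrays of BC and D2 all lay above the 4 arrays of E and I, and D2 stood 1.77-fold above I on the linear scale. This gap exceeded that of 99% of the probe sets tested. The call of Nqo1 was lost without experiment E (adjusted p = 0.0527) and without experiment I (adjusted p = 0.0784), and held without BC (adjusted p = 0.0412) and without D2 (adjusted p = 0.0255). When limma let the prior variance follow intensity (a variance trend), 4 of the 9 genes passed (Nfe2l2, Gclm, Nqo1 and Srxn1) against 12.1% of all probe sets tested, and with a stricter intensity filter (6.21) 5 passed (Gclc in addition) against 22.0%.

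Gclm was the next most variable of the 9 genes, at 9.36 (BC), 9.55 (D2), 9.30 (E) and 9.04 (I), a 1.41-fold gap between D2 and I (limma F adjusted p = 0.0561). Nfe2l2 itself followed another order, at 9.37 (BC), 9.73 (D2), 9.70 (E) and 9.51 (I) (limma F adjusted p = 0.128). Experiment BC therefore had the lowest Nfe2l2 mean of the 4 while its Nqo1 mean was the second highest. Experiment I had the lowest mean for 6 of the 9 genes (Gclc, Gclm, Nqo1, Txnrd1, Srxn1 and Gsr), where 28.8% of all probe sets tested were lowest in I. Sod2 and Gsr varied least among the target genes, with gaps of 0.19 and 0.15 on the log2 scale, below the median of 0.20 over all probe sets tested.

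**Figure D3:**
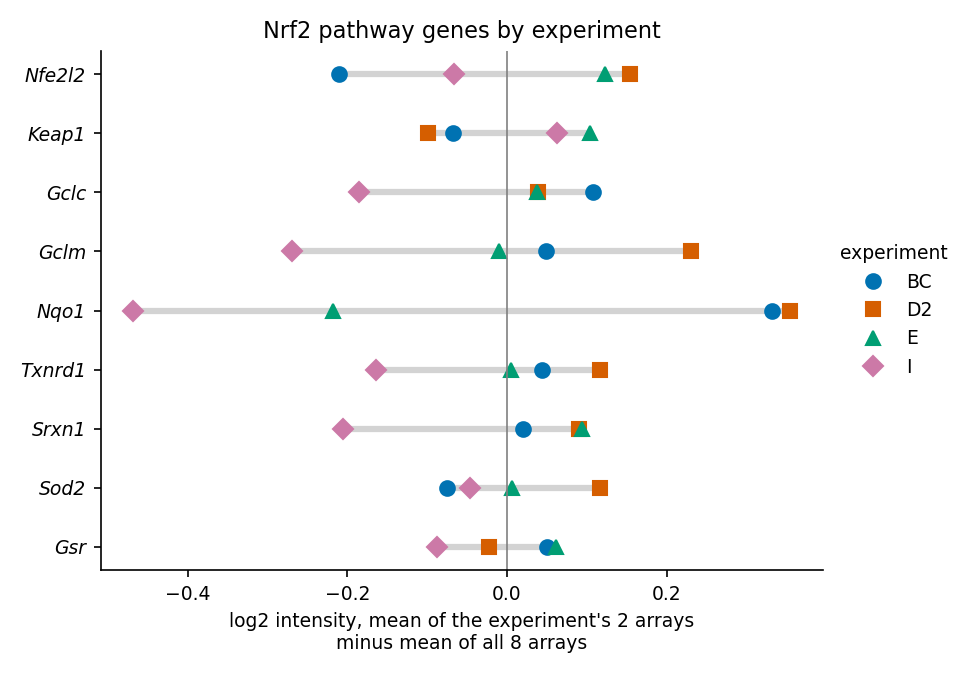
Mean log2 intensity of each of the 9 genes in each experiment (2 arrays) minus the gene's mean over all 8 arrays, with a grey bar from the lowest to the highest experiment. Experiment I lies at the left end for 6 of the 9 genes, and Nqo1 has the widest bar, from −0.47 in I to 0.35 in D2.

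**Figure D4:**
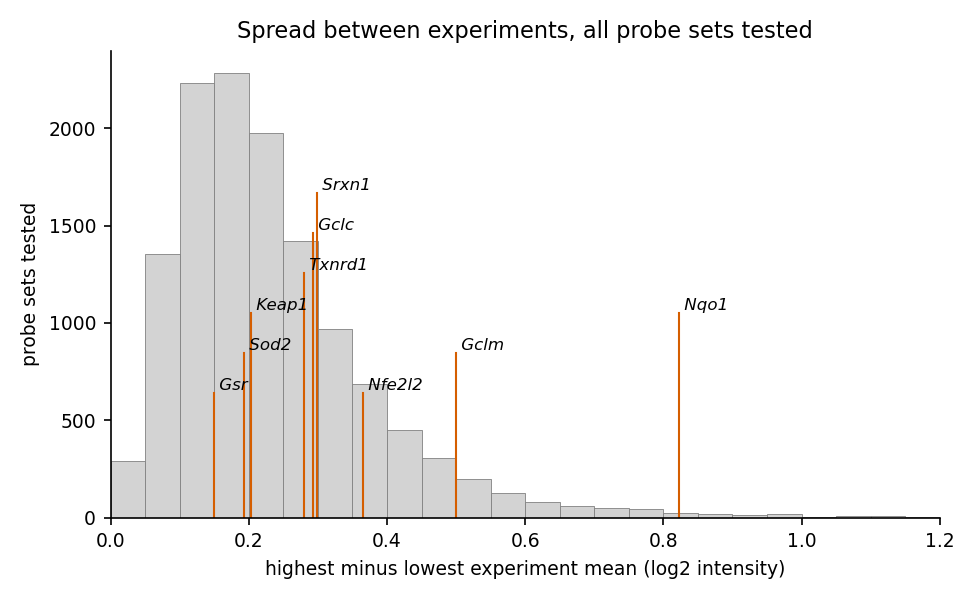
Distribution over the 12668 probe sets tested of the gap between the highest and the lowest experiment mean on the log2 scale, with orange lines at the 9 genes (the height of a line has no meaning; 30 probe sets beyond 1.2 are not drawn). Nqo1 stands at 0.82 and Gclm at 0.50, and Keap1, Sod2 and Gsr lie below the overall median of 0.20.

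Some of the listed markers also differed between the experiments. Of the macrophage and monocyte markers 3 of 9 passed the F test (Cd14, Ly6c2 and C1qb), where 3.35% of all probe sets tested passed. Of the mast cell and basophil markers 2 of the 3 above the filter passed (Cpa3 and Kit). Of the dendritic cell markers 0 of 9 passed, and of the neutrophil markers 0 of the 2 above the filter. Even so, Itgax, Zbtb46, Ciita and Batf3 had an unadjusted limma F p under 0.05 (0.0148, 0.0142, 0.0122 and 0.0213). H2-Ab1, H2-Aa, Flt3, Cd80 and Cd86 did not, and 24.2% of all probe sets tested did. Cd14 and C1qb had their highest mean in E, and Ly6c2 in I (7.01, with 6.96 in E). Kit is also the receptor of the SCF given here, so it is not a marker of other cells alone. The summed linear intensity of the 9 macrophage and monocyte markers averaged 1282 (BC), 1293 (D2), 1602 (E) and 1274 (I), and that of the 10 mast cell and basophil markers 249 (BC), 188 (D2), 213 (E) and 240 (I). Over the treatment groups the macrophage and monocyte sum ranged from 1181 to 1578 with SCF and from 1263 to 1626 in medium. The mast cell and basophil sum ranged from 185 to 246 with SCF and from 192 to 251 in medium. Kit was the brightest of these 10 markers, with log2 means of 6.88 (BC), 6.41 (D2), 6.65 (E) and 6.96 (I), and weighs most in their sum. That sum is therefore not a measure of mast cell content. The list of 10 mast cell and basophil markers was mixed. Cpa3, Kit and Gata2 exceeded the filter in their mean over all arrays, and the others, among them Ms4a2, Fcer1a and Mcpt4, did not. The part of these markers in the differences of Nqo1 was not tested. In bulk RNA, fewer cells of a type and less RNA per cell cannot be told apart.

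The profiles of the 9 genes over the 8 arrays were then compared with each other. These correlations describe 8 arrays that share 4 experiments and are given without a p. Of the 36 pairs among the 9 genes, 28 had a Pearson r above 0 with a median of 0.51, where 50.8% of all pairs among the 11351 genes tested were above 0 with a median of 0.0098. The closest pairs were Gclm with Txnrd1 at 0.88, Gclm with Nqo1 at 0.85 and Gclc with Gsr at 0.83. Nfe2l2 stood at 0.72 with Sod2, 0.50 with Txnrd1 and −0.0038 with Nqo1. Keap1 was below 0 with 7 of its 8 partners, down to −0.88 with Nqo1, a pattern singled out after the values were seen.

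The genes whose profile was most like that of Nfe2l2 were Mocs2 (r = 0.98), Zranb3 (r = 0.98) and Tmeff1 (r = 0.98), among 11350 others. Sod2, the closest of the 9 genes, ranked 1152nd in this order. The profile of Keap1 was most like those of Xpnpep3 (r = 0.96), Alg9 (r = 0.94) and Pwwp2b (r = 0.94).

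A wider set of 97 antioxidant and oxidant genes in 6 lists, which include the 9 genes, was examined in the same fit. Of these, 87 were named on the array and 79 were tested, 30 above 0 and 49 below, and 0 passed the adjusted threshold in limma. Their median log2 fold change was −0.03, and 1 of the 79 genes had an unadjusted p under 0.05, against 4.21% of all probe sets tested. It was Cd36, a scavenger receptor gene (log2 fold change −0.14, SE 0.05, adjusted p = 0.945).

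Among Nrf2, its inhibitors and its partners, 5 of 13 genes were above 0 and 8 below. The small Maf genes Maff and Mafk, partners of Nrf2 on DNA, stood at 0.10 (SE 0.06) and −0.07 (SE 0.06), and Cul3, the scaffold of the ligase that Keap1 serves, at −0.07 (SE 0.05). In the glutathione list 7 of 23 genes were above 0 and 16 below. Its 3 genes with the smallest p outside the members were Chac2, a glutathione-degrading enzyme gene, at −0.14 (SE 0.06), Mgst1, a microsomal glutathione transferase gene, at −0.11 (SE 0.06) and Ggct, a gamma-glutamyl cyclotransferase gene, at −0.07 (SE 0.05). In the thioredoxin list 6 of 16 genes were above 0 and 10 below. Sesn2, a stress-induced sestrin gene, stood at 0.11 (SE 0.06), and the mitochondrial genes Txn2 and Txnrd2 were above 0 in 4 of 4 experiments at 0.08 (SE 0.05) each, where 6.43% of all probe sets tested were above 0 in all 4. With the array medians equalized Txnrd2 was above 0 in 3 of 4.

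Among dismutases, catalase and the copper chaperone, 2 of 5 genes were above 0 and 3 below, with Ccs, the chaperone that loads copper into Sod1, at −0.06 (SE 0.05) and Cat, which encodes catalase, at 0.03 (SE 0.06). Of the other Nrf2 targets, mainly in quinone reduction, NADPH supply, haem and iron, 5 of 16 genes were above 0 and 11 below. The scavenger receptor gene Cd36 was on this list but has none of these functions. Beside Cd36, the quinone reductase gene Nqo2 stood at −0.14 (SE 0.07) and the malic enzyme gene Me1, an NADPH source, at −0.13 (SE 0.07). The phagocyte NADPH oxidase, which makes superoxide, had 5 of 6 genes above 0 and 1 below. That one was Cybb, its catalytic subunit gene, at −0.09 (SE 0.07) and below 0 in 4 of 4 experiments, while the organiser subunit gene Ncf1 at 0.07 (SE 0.05) and the chaperone gene Cybc1 at 0.07 (SE 0.05) were above 0 in 4 of 4. With the array medians equalized each of these 3 genes kept its sign in 3 of 4.

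**Figure D5:**
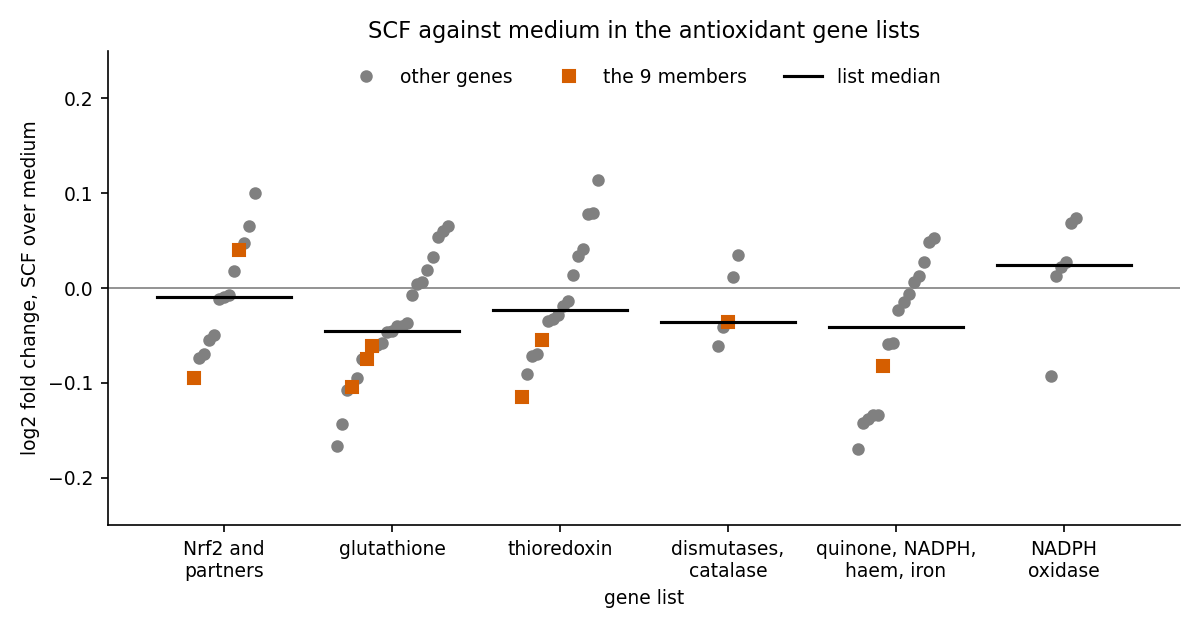
Log2 fold change, SCF over medium, of each tested gene in the 6 lists, with orange squares for the 9 genes described here, grey points for the others and black bars at each list's median. All points lie between −0.17 and 0.11, and list medians between −0.04 and 0.02.

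Between experiments, 4 of the 79 genes passed limma's F test (5.06%, beside 3.35% of all probe sets tested). Besides Nqo1 these were Sod3, Gstm2 and Txnip. Sod3, the extracellular superoxide dismutase, averaged 5.61 (BC), 4.53 (D2), 4.70 (E) and 4.84 (I) (adjusted p = 0.0271), so that BC alone stood high. Gstm2, a cytosolic glutathione transferase, averaged 7.52 (BC), 7.45 (D2), 7.31 (E) and 6.99 (I) (adjusted p = 0.0335). It was highest in BC and lowest in I, as was Gclc, which did not pass the test. Txnip, the thioredoxin-binding protein gene that glucose induces, averaged 8.94 (BC), 9.34 (D2), 9.53 (E) and 9.22 (I) (adjusted p = 0.0491), lowest in BC as Nfe2l2 was.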

How the data were processed

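One table was used, with 1 RMA intensity per probe set and array on a linear scale. Per the submitters' processing notes, the authors obtained the deposited intensities by RMA. The sources used here name no version, software or filter. RMA pulls the arrays to a common distribution, so a shift of all genes alike would be lost, and it gives no detection call. Groups and experiments came from sample titles. No array repeated another. Gene coordinates are not given, since the files name no genome build; those of promoters are of the RefSeq table.

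Here log2 was taken with no pseudocount. Gene names came from the platform annotation. Probe sets with a symbol whose mean reached the median of such means (4.05) were tested with lmFit and eBayes of limma 3.58.1 (R 4.3.3), two-sided, with the experiment as a block; p-values were adjusted by Benjamini-Hochberg over 12668 probe sets. The same fit gave the F test of experiment. After removal of group means, the arrays of an experiment had correlations of 0.46 (BC), 0.41 (D2), 0.42 (E) and 0.36 (I), and the design text states that they share their cells, so they were treated as pairs. The fit was tested on simulated data. The number of arrays limits the precision, with a median SE of 0.06.

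The 10 genes, the lists and the markers were chosen with earlier results of these data known. All 10 genes were to be named. From each list, the genes passing either test (up to 5) and the 3 with the smallest unadjusted p for SCF were named, and for Nfe2l2 and Keap1 the 3 genes with the highest r. The alternatives were 2 other intensity filters, a variance trend, equalized array medians, a repeated quantile normalization, the mean of a gene's probe sets, no block, a random block and leaving out each experiment.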

Additional observations from a re-analysis of the deposited data

Results flagged for a closer look

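Among 29 genes examined in each group of 4 arrays, 1 array stood far from the other 3. The SCF array of experiment I read 5.27 (log2 intensity) for Nqo2, a quinone reductase gene, while the other 3 SCF arrays lay between 5.42 and 5.44. The gap took 0.889 of the group's range, above Dixon's 95% critical value for 4 samples. Chance flags about 1 in 20 such groups, and 58 groups were examined. The medium array of experiment I was low too, since the mean of both arrays was 5.25 in I against 5.47 in BC, 5.49 in D2 and 5.60 in E.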

How the results depend on the processing

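The count of probe sets called for SCF against medium was 0 in limma under all 12 alternatives, among them the fit with no replicate block, which called 0, and the random block, and 0 of the 9 genes was called under any. The number at an unadjusted p under 0.05 was 533, and between 125 and 856 under the alternatives; among the 9 genes it was 0, but 2 with the variance trend and 1 without D2. Of the 9 genes, 8 lay below 0 under every alternative except without D2, where 7 did. The log2 fold change of Sod2 turned to 0.032 there and ranged down to −0.079 (without I) when 1 experiment was left out. The count for differences between experiments was 424, but 194 with no filter, 1396 with the stricter filter and 1527 with the variance trend, and 38 without E, 110 without D2, 148 without BC and 177 without I. Of the 9 genes this test called 1, but 5 with the stricter filter and 4 with the variance trend. It called 2 (Gclm and Nqo1) with the mean of a gene's probe sets, where 4.04% of all those tested passed. Gclm passed there narrowly, at a limma F adjusted p of 0.0485, against 0.0561 in the main fit. When 1 experiment was left out, the test called from 0 (without E or without I) to 1 of the 9 genes. The cause of these shifts was not tested. The fits without 1 experiment used fewer arrays, while those with other filters or the variance trend used all 8. The list medians were small and some turned. That of Nrf2 and its partners was −0.0098, −0.029 with equalized array medians, and from −0.028 to 0.016 without 1 experiment. The thioredoxin median was −0.02, and from −0.043 to 0.0074, that of the NADPH oxidase 0.02, and from 0.0082 to 0.051, that of the other Nrf2 targets −0.04, and from −0.071 to −0.019, and that of the dismutases −0.04, and from −0.06 to 0.03, without 1 experiment. With equalized array medians these 4 medians were −0.043 (thioredoxin), 0.0051 (NADPH oxidase), −0.06 (other Nrf2 targets) and −0.055 (dismutases). The deposited values give no background, so signal over background is unknown.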
